A study of Mus musculus with 11 samples.

Results

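Bone morphogenetic protein (BMP) signal genes were described in sorted adrenal cells through 10 genes taken by symbol from the count table of 49671 genes: the ligands Bmp2, Bmp4 and Bmp6, the receptor Bmpr1a, the inhibitory Smads Smad6 and Smad7, and the Id genes Id1, Id2, Id3 and Id4. All 10 were among the 20893 genes that passed the filter on low counts. The cells came from 6 male mice of the Nes-GFP strain, in which green fluorescent protein (GFP) reports Nestin, an intermediate filament gene used to mark progenitor cells. Adrenal cortex and medulla were dissected apart and pooled in 3 groups of 2 mice, and 180 to 300 cells per tube were sorted with propidium iodide present. GFP reports Nes activity in any cell type, and the GFP-negative gates hold whatever else the dissected tissue contained.

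The 11 libraries formed 4 groups: cortex GFP-positive (n = 3), cortex GFP-negative (n = 3), medulla GFP-positive (n = 3) and medulla GFP-negative (n = 2). The cortex libraries numbered 1 and 2 are from mice of about 3.5 months and those numbered 3 from mice of about 2.5 months, whatever the gate. Medulla GFP-positive library 1 and both medulla GFP-negative libraries were from the older mice. Medulla GFP-positive libraries 2 and 3 were from the younger mice. Age can thus not be fully told apart from gate in the medulla, nor from tissue within either gate. In the older mice alone medulla GFP-positive cells are therefore 1 library, which that fit assumes to vary like the libraries of the other groups. By its title, the series concerns Schwann cell precursors as a source of adrenal steroid cells and chromaffin cells.

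BMP ligands bind a pair of type I and type II receptors, which phosphorylate Smad1, Smad5 and Smad9. These enter the nucleus with Smad4 and switch on targets, of which the Id genes are the best known. Id proteins lack a DNA-binding domain and hold back basic helix-loop-helix factors by pairing with their E protein partners, while Smad6 and Smad7 are induced by the pathway and inhibit it. In the embryo, BMP signals from the dorsal aorta help to induce the sympathoadrenal lineage from which chromaffin cells descend.

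Total counts lay between 18500690 and 29204212 per library. Levels are given as CPM, the counts scaled to library sizes after TMM normalisation, changes are log2 values, and a call is an adjusted p below 0.05 in edgeR's quasi-likelihood test. Nes itself averaged 44.5 ± 8.19 CPM in cortex GFP-positive and 6.40 ± 1.57 CPM in cortex GFP-negative libraries, and 109 ± 60.2 CPM in medulla GFP-positive and 21.1 ± 7.08 CPM in medulla GFP-negative libraries (SD). The gates differed in cell types. Of 12 glial markers 9 were called higher and Apoe lower in cortex GFP-positive cells, and 10 higher and Apoe lower in medulla GFP-positive cells. Summed glial markers without Apoe were 219 to 315 CPM in cortex GFP-positive and 4.16 to 12.3 CPM in cortex GFP-negative libraries, and 2188 to 5179 CPM in medulla GFP-positive and 21.7 to 28.9 CPM in medulla GFP-negative libraries. Apoe was left out after the values were seen, because steroid cells and macrophages express it too. With it, the sums of all 12 glial markers were 426 to 924 CPM in cortex GFP-positive and 4164 to 8131 CPM in cortex GFP-negative libraries, and 6937 to 16948 CPM in medulla GFP-positive and 23928 to 24838 CPM in medulla GFP-negative libraries. Sox10, a defining factor of Schwann cell precursors, had no count in medulla GFP-negative libraries. The 12 macrophage markers summed to 56.8 to 223 CPM in cortex GFP-positive and 2325 to 4004 CPM in cortex GFP-negative libraries, and to 260 to 626 CPM in medulla GFP-positive and 11659 to 13528 CPM in medulla GFP-negative libraries, and all 12 were called lower in both GFP-positive gates. Of 10 steroid cell markers, 4 were called higher and 1 lower in cortex GFP-positive cells, and 6 higher and 1 lower in medulla GFP-positive cells. In these pooled cells, fewer cells of a type and less RNA per cell cannot be told apart. The part of any cell type in the results below was not tested.

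The levels of the 10 genes spanned several orders of magnitude. Averaged over the libraries, Id2 stood at 1356 CPM, above 99.8% of tested genes, and Id3 at 218 CPM. Id1 averaged 66.3 CPM and Bmpr1a 62.8 CPM, while Bmp2 and Smad7 were near 14.2 and 13.8 CPM. Smad6 at 2.97 CPM, Bmp4 at 2.85 CPM, Bmp6 at 0.694 CPM and Id4 at 0.452 CPM were the low ones. In a single library 3 counts, the floor used here, stand for 0.104 to 0.157 CPM.

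**Figure D1:**
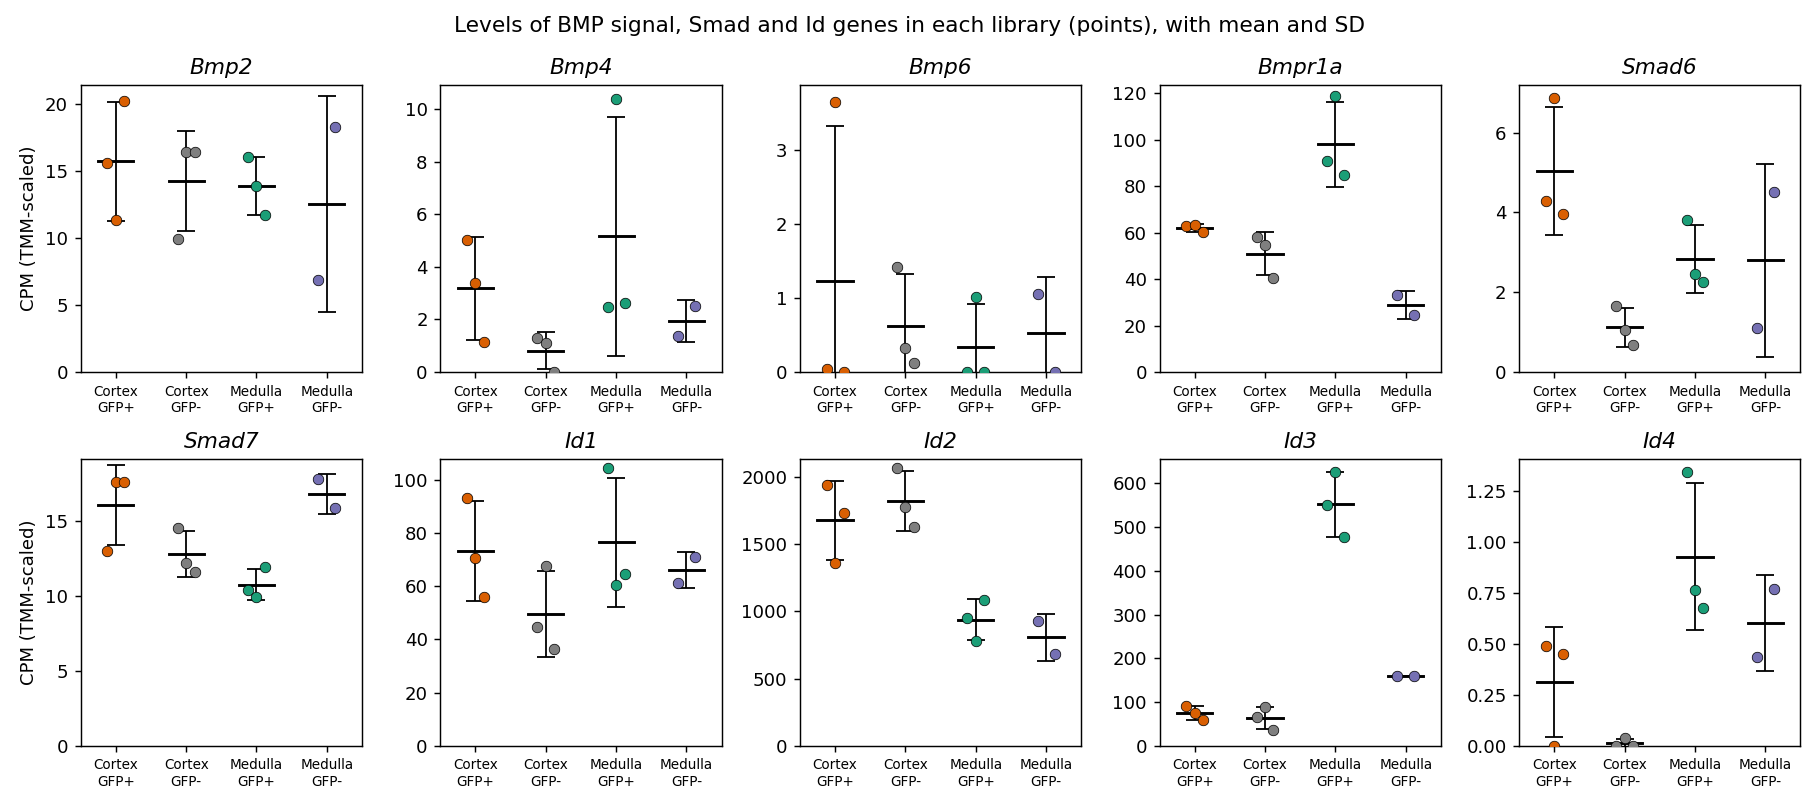
CPM (vertical axes, linear and starting at 0) of the 10 genes in each library, by group (horizontal axes); points are libraries, horizontal bars group means and whiskers SD, which are clipped at 0 where they reach below it. Id3 lies at 479 to 627 CPM in the 3 medulla GFP-positive libraries, above all other libraries, and Id2 lies higher in all 6 cortex libraries than in the 5 medulla libraries.

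The promoters of the 4 genes with calls in at least 1 comparison at levels above the floor in every library are shown because Smad proteins act on target genes through short GC-rich and palindromic sequences. The windows run from 250 bases before to 50 bases after the RefSeq transcription start, 300 bases each, from RefSeq on GRCm38.p6, read 5′ to 3′ on the strand of the gene. They lie at chr14:34502497-34502796 (minus strand) for Bmpr1a, chr9:64022010-64022309 (minus strand) for Smad6, chr12:25096043-25096342 (minus strand) for Id2 and chr4:136143572-136143871 (plus strand) for Id3. Capitals mark matches to the Smad-type sequences GGCGCC, GCCGNCGC or GTCTAGAC on either strand.
Bmpr1a: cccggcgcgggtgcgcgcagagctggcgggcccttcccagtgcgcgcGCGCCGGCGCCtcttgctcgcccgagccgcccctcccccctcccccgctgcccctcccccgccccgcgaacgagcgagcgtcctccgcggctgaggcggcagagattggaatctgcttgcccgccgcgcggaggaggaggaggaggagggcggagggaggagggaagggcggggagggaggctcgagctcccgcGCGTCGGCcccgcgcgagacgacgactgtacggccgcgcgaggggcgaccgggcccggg
Smad6: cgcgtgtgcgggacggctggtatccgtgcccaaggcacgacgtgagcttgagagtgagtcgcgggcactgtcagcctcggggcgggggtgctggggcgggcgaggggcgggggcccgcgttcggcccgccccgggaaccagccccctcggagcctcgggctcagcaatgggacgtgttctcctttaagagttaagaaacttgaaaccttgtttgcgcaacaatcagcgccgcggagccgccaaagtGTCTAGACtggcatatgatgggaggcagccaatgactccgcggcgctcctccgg
Id2: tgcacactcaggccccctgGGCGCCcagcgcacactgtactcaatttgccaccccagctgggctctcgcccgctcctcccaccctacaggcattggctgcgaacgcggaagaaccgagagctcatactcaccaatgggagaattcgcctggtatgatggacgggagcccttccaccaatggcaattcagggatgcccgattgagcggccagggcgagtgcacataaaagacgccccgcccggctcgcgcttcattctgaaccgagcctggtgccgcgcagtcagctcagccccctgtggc
Id3: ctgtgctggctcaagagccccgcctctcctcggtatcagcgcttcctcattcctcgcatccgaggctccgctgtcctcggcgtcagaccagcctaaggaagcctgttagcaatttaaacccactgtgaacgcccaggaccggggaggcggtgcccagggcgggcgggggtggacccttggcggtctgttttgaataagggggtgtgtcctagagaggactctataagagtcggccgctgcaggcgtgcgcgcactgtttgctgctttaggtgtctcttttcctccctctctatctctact

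Promoter windows were matched for 7 of the 10 genes, which adds Bmp4, Bmp6 and Id4. GGCGCC stood in 11.9% of all 32851 promoters and was found in Bmpr1a, Id2 and Id4. GCCGNCGC stood in 9.76% of all promoters and was found in Bmp6, Id4 and at 3 places in Bmpr1a, of which the matches at -203 and -201 from the start overlap the GGCGCC at -198. The palindrome GTCTAGAC stood in 0.213% of all promoters and was found in Smad6, beginning at -4. Id3 and Bmp4 held none of these letters. Beside these, the E-box CAGCTG (16.3% of all promoters) was searched and found in Id2 alone of the 7, TATAAA (13.6%) in none, and CCAAT (37.4%) at 3 places in Id2, at 2 in Id4 and at 1 each in Bmpr1a and Smad6. The windows hold 79.3% G or C in Bmpr1a, 66.3% in Smad6, 63.3% in Id2 and 60% in Id3, against a median of 52.7% over all promoters. These matches are descriptions of letters and not measured binding sites.

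The 10 genes were read in 4 pairwise comparisons and in the difference of the gate effects. In the cortex gate edgeR's test called 1 of the 10, Smad6, higher in GFP-positive cells, where 14.7% of all tested genes were called, 7.14% higher and 7.59% lower. In the medulla gate it called 2, Bmpr1a and Id3, both higher, against 21.4% of all tested genes, 10.2% higher and 11.1% lower. In GFP-positive cells by tissue it called 3, of which Id2 was higher and Bmpr1a and Id3 lower in cortex, against 15.5% of all genes, 6.04% higher and 9.45% lower. In GFP-negative cells by tissue it called 4, of which Bmpr1a and Id2 were higher and Id3 and Id4 lower in cortex, against 18.6%, 8.06% higher and 10.6% lower. The difference of gate effects was called for Bmpr1a alone, against 1.61%, 0.857% higher and 0.756% lower. Groups did not overlap for 2 of the 10 in the cortex gate (38.2% of all genes), 3 in the medulla gate (48.1%), 6 between GFP-positive cells (34.5%) and 6 between GFP-negative cells (49.5%). In neither gate did the 10 genes exceed all genes in their share of calls or of groups without overlap. The median log2 change of the 10 was 0.45 in the cortex gate and 0.21 in the medulla gate, beside 0.03 and 0.09 over all tested genes. It was 0.06 in GFP-positive and -0.41 in GFP-negative cells by tissue, beside -0.03 and -0.02. With total counts in place of TMM, the share of higher genes among all called was 38.0% in the cortex gate, beside 48.5% with TMM, 53.6% in the medulla gate, beside 47.9%, 31.2% between GFP-positive cells, beside 39.0%, and 52.7% between GFP-negative cells, beside 43.2%. The labels give 3 pools of mice but not the pool behind each library number. If each pool was of 1 age, 3 pools over 2 ages leave 1 age with only 1 pool. Then either libraries 1 and 2 of each cortex gate and of medulla GFP-negative cells, or medulla GFP-positive libraries 2 and 3, shared a pool. The p-values measure the spread between these libraries, part of which may be technical, and the fits treat all libraries as separate.

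**Figure D2:**
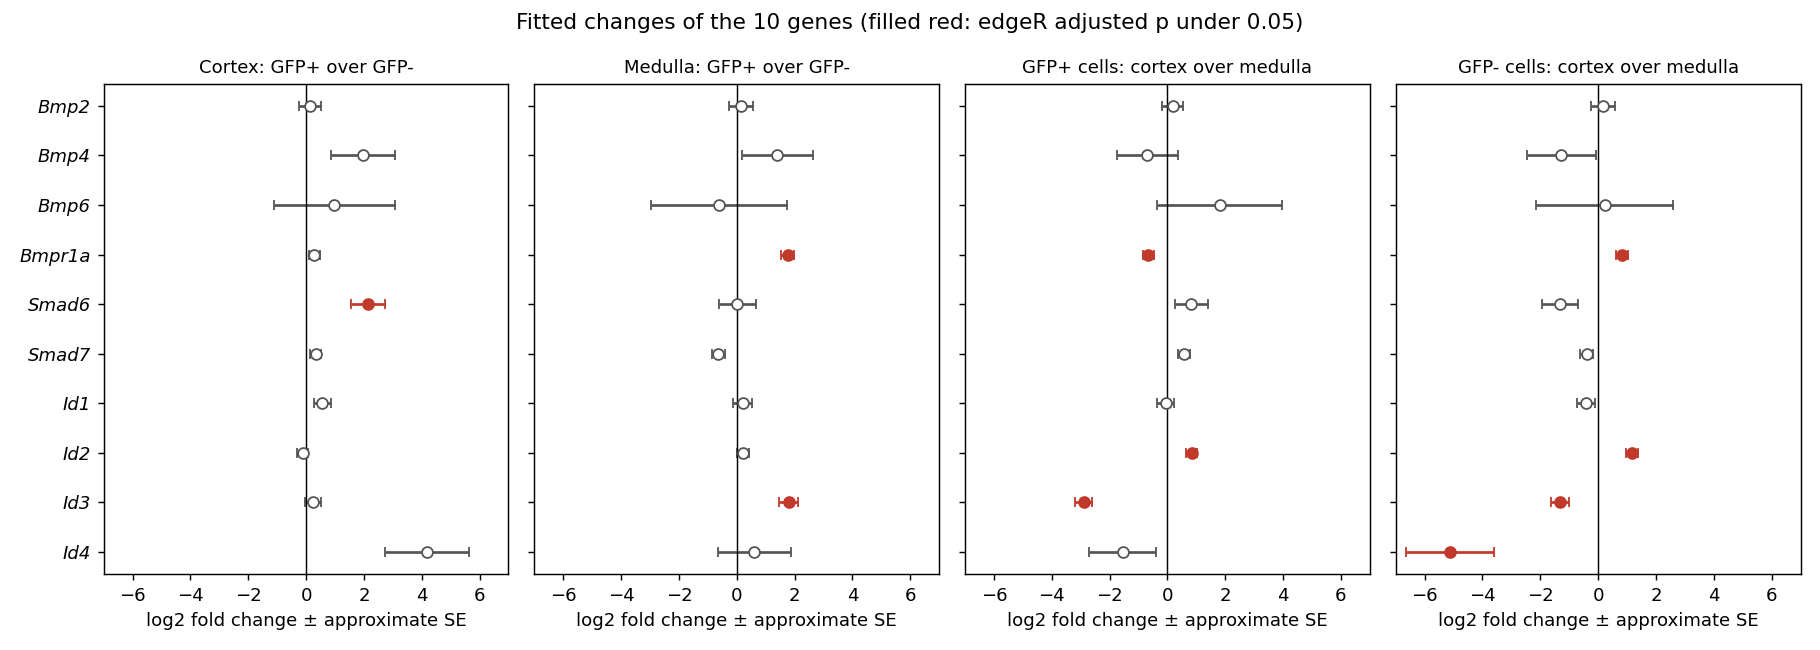
Fitted log2 changes (horizontal axes, points with approximate SE) of the 10 genes in the 4 pairwise comparisons, with cortex or GFP-positive cells on top of each ratio; filled red points passed the edgeR test at an adjusted p below 0.05. Smad6 passes in the cortex gate, Bmpr1a and Id3 in the medulla gate, Bmpr1a, Id2 and Id3 in both comparisons between tissues, and Id4 between tissues in GFP-negative cells.

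Of the ligands, none was called in any comparison. Bmp2, a ligand of Bmpr1a (ENSMUSG00000027358, chromosome 2, 133552159 to 133562885, mm10), had 15.6, 11.3 and 20.2 CPM in cortex GFP-positive libraries, against 9.93, 16.4 and 16.4 CPM in cortex GFP-negative libraries. In the medulla it had 16.1, 13.9 and 11.7 CPM in GFP-positive libraries, against 6.87 and 18.3 CPM in GFP-negative libraries. All groups overlapped, and its fitted changes were between 0.14 and 0.18 on the log2 scale in the 4 pairwise comparisons, each with an approximate SE of 0.37 to 0.42 and an edgeR adjusted p of 0.812 to 0.852. Each SE is approximate, being the size of the fitted change over the root of its F statistic.

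Bmp4, another ligand of Bmpr1a and the one best known from the dorsal aorta (ENSMUSG00000021835, chromosome 14, 46383520 to 46390669), had 5.03, 3.39 and 1.13 CPM in cortex GFP-positive libraries, against 1.31, 1.10 and 0 CPM in cortex GFP-negative libraries. In the medulla it had 2.48, 10.4 and 2.61 CPM in GFP-positive libraries, against 1.39 and 2.52 CPM in GFP-negative libraries. Medulla GFP-positive library 2 stood far above its 2 companions, and gate groups overlapped in both tissues. The log2 change was 1.98 (SE 1.11, edgeR adjusted p = 0.265) in the cortex and 1.40 (SE 1.24, edgeR adjusted p = 0.472) in the medulla. Bmp6, a ligand best known from iron regulation in the liver (ENSMUSG00000039004, chromosome 13, 38345716 to 38499728), came mostly from single libraries. It had 85 of its 86 counts of cortex GFP-positive cells in library 2 and all 29 counts of medulla GFP-positive cells in library 2. In the GFP-negative gates it had 38, 9 and 3 counts in the cortex, and in the medulla all 29 counts in library 1 of 2. Bmp6 thus varied widely between libraries of 1 group, and no difference passed the test.

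Bmpr1a, the type I receptor for Bmp2 and Bmp4 (ENSMUSG00000021796, chromosome 14, 34410734 to 34503341), rose in medulla GFP-positive cells and its gate effect differed between the tissues by the interaction test. It had 90.6, 119 and 84.6 CPM in medulla GFP-positive libraries, against 33.0 and 24.5 CPM in medulla GFP-negative libraries. In the cortex it had 63.0, 63.3 and 60.1 CPM in GFP-positive libraries, against 58.0, 54.5 and 40.4 CPM in GFP-negative libraries. No groups overlapped, and their order was medulla GFP-positive, cortex GFP-positive, cortex GFP-negative, medulla GFP-negative.

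In the medulla the gate difference in Bmpr1a was 1.77 on the log2 scale (SE 0.222, edgeR adjusted p = 0.000462), 3.40-fold, on 98.0 ± 18.2 CPM in GFP-positive libraries (SD, n = 3) and 28.8 ± 6.00 CPM in GFP-negative libraries (SD, n = 2). This call held without any 1 of the 5 libraries, with an adjusted p of at most 0.00673, and under all 10 other settings, of which the older mice alone had 1 medulla GFP-positive library. In the cortex the gate difference of 0.29 (SE 0.186) did not pass the test (edgeR adjusted p = 0.340). The difference of the gate effects, cortex minus medulla, was -1.48 (SE 0.284, edgeR adjusted p = 0.0358). It was lost without any of the 3 cortex GFP-positive libraries, without cortex GFP-negative library 1 or 2, without medulla GFP-positive library 1 or 2 and without medulla GFP-negative library 2, at adjusted p of 0.0517 to 0.138. With the age of the mice as a term the adjusted p was 0.0707, and in the older mice alone, with 1 medulla GFP-positive library, 0.199, both with the same sign.

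Between tissues, Bmpr1a was lower in cortex than in medulla GFP-positive cells, by -0.66 on the log2 scale (SE 0.187, edgeR adjusted p = 0.0395), and higher in cortex than in medulla GFP-negative cells, by 0.82 (SE 0.214, edgeR adjusted p = 0.0247). Among the GFP-positive cells the call was lost without any cortex library and without medulla GFP-positive library 1 or 2, at adjusted p of 0.0616 to 0.134, with the age term (0.0527) and in the older mice alone (0.373, with 1 medulla GFP-positive library). Among GFP-negative cells it was lost without cortex GFP-negative library 1 (adjusted p = 0.0816), library 2 (0.0671) or medulla GFP-negative library 2 (0.194).

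The authors' deposited table of the medulla comparison gives Bmpr1a a log2 fold change of 1.73 (their SE 0.233, adjusted p = 0.0305). It was the only 1 of the 10 genes below 0.05 there, where their table called 6.11% of its genes. In the authors' deposited table of the cortex gate 0 of the 10 were below 0.05 (3.63% of its genes), against Smad6 in edgeR's test, at an adjusted p of 0.648 in that table. In the authors' deposited table of GFP-positive cells by tissue Id3 was the only 1 (4.07%). The deposited adjusted p-values are larger than a plain test against no change would give at the SE listed beside them. Smad6, for example, has a log2 change of 2.02 in the cortex gate there (their SE 0.583). Their calls and edgeR's calls are therefore not from like tests, and a gene called by edgeR alone is no failed repeat.

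Of the inhibitory Smads, Smad6 rose in cortex GFP-positive cells and Smad7 was not called in any comparison. Smad6, which blocks BMP type I receptors and Smad1 (ENSMUSG00000036867, chromosome 9, 63953076 to 64022059), had 4.28, 6.87 and 3.96 CPM in cortex GFP-positive libraries, against 1.64, 1.06 and 0.669 CPM in cortex GFP-negative libraries. Medulla values of Smad6 were 3.82, 2.47 and 2.25 CPM in GFP-positive libraries, against 1.10 and 4.51 CPM in GFP-negative libraries. The cortex gates did not overlap and the medulla gates did.

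The cortex difference in Smad6 was 2.16 on the log2 scale (SE 0.587, edgeR adjusted p = 0.0345) on 5.04 ± 1.597 CPM in GFP-positive and 1.13 ± 0.489 CPM in GFP-negative libraries (SD, n = 3 each). The call ended without any 1 of the 6 cortex libraries, with adjusted p between 0.0535 and 0.115, and in the older mice alone (0.220). In the medulla the change was 0.02 (SE 0.629, edgeR adjusted p = 0.988), and the difference of gate effects of 2.13 (SE 0.843) did not pass (edgeR adjusted p = 0.243). Endothelial markers summed to 448 and 1324 CPM in medulla GFP-negative libraries 1 and 2, the library with more Smad6 being the library with more of them. In the cortex the endothelial sum was 127 to 391.7 CPM in GFP-positive and 137 to 293 CPM in GFP-negative libraries, and none of its 15 markers was called there. Pericyte and smooth muscle markers were also higher in the cortex gate, at 84.8 to 267 CPM in GFP-positive and 3.29 to 9.22 CPM in GFP-negative libraries with 7 of 12 called higher. In the medulla they summed to 174 to 501 CPM in GFP-positive and 146 to 155 CPM in GFP-negative libraries, with 3 of 12 called higher. The cortex gate also called 9 of 12 glial markers higher and 1 lower, and 4 of 12 chromaffin markers higher. The part of these cells in the Smad6 levels was not tested.

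Smad7, which inhibits BMP and TGF-beta receptors (ENSMUSG00000025880), had 13.0, 17.6 and 17.6 CPM in cortex GFP-positive libraries, against 14.5, 12.2 and 11.6 CPM in cortex GFP-negative libraries. Medulla libraries had 10.4, 9.94 and 11.9 CPM in GFP-positive libraries, against 17.8 and 15.8 CPM in GFP-negative libraries. The cortex gates overlapped, and medulla GFP-positive libraries were lower than GFP-negative ones without overlap. The medulla change was -0.65 (SE 0.225, edgeR adjusted p = 0.0672), which passed under DESeq2 (adjusted p = 0.0234) and with at least 1 CPM in 3 libraries as the filter (0.0414). The cortex change was 0.33 (SE 0.204, edgeR adjusted p = 0.316).

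Of the Id genes, Id3 rose in medulla GFP-positive cells and Id2 was higher in the cortex than in the medulla whatever the gate, while Id1 was not called in any comparison. Per kb of gene length in cortex GFP-positive cells, Id2 stood at 1322 CPM per kb, Id1 at 63.2, Id3 at 41.7 and Id4 at 0.189. In medulla GFP-positive cells Id2 stood at 737 CPM per kb, Id3 at 309, Id1 at 65.9 and Id4 at 0.559. Id3 and Id1 change places between the tissues only on this length-scaled measure. In CPM Id3 and Id1 averaged 74.7 and 73.3 in cortex GFP-positive cells, with overlapping libraries, and 553 and 76.4 in medulla GFP-positive cells.

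Id3 (ENSMUSG00000007872, chromosome 4, 136143497 to 136145755) had 552, 627 and 479 CPM in medulla GFP-positive libraries, against 159 and 160 CPM in medulla GFP-negative libraries. In the cortex it had 90.7, 74.5 and 58.9 CPM in GFP-positive libraries, against 66.4, 88.3 and 36.8 CPM in GFP-negative libraries. The medulla gates lay far apart, all cortex libraries were lower than all medulla libraries, and the cortex gates overlapped.

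The medulla difference in Id3 was 1.79 on the log2 scale (SE 0.328, edgeR adjusted p = 0.00362), 3.46-fold, and kept its call without any 1 library (adjusted p of at most 0.0312) and under all 10 other settings, the older mice alone again with 1 medulla GFP-positive library. In the cortex the change was 0.23 (SE 0.276, edgeR adjusted p = 0.635). The difference of the gate effects was -1.56 (SE 0.419) and did not pass (edgeR adjusted p = 0.0984), though it did under DESeq2 (0.00767) and without cortex GFP-negative library 3 (0.0467). Cortex GFP-positive cells had less Id3 than medulla GFP-positive cells by -2.89 (SE 0.295, edgeR adjusted p = 0.000339), 7.40-fold, which held in all 6 sets without 1 library and all 10 other settings, with the same limit for the older mice. The authors' deposited table gives -2.90 for that comparison (adjusted p = 9.92e-09). For the medulla gate their table gives Id3 a log2 change of 1.74 (their SE 0.321) and does not call it (adjusted p = 0.239). At that SE a plain test against no change would give a far smaller value, so the 2 tests are not alike. Among GFP-negative cells the difference was -1.32 (SE 0.303, edgeR adjusted p = 0.0145), lost without medulla GFP-negative library 2 (0.0756).

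Without Apoe, left out after the values were seen, medulla GFP-positive cells also held far more glial transcripts than the other groups. That sum was 2188 to 5179 CPM, against at most 315 CPM elsewhere. With Apoe the order turned, at 6937 to 16948 CPM in medulla GFP-positive and 23928 to 24838 CPM in medulla GFP-negative libraries. Chromaffin markers were high in both medulla gates, at 6920 to 12348 CPM in GFP-positive and 5949 to 9465 CPM in GFP-negative libraries, and at 10.7 to 171 CPM in cortex GFP-positive and 0.551 to 1.83 CPM in cortex GFP-negative libraries. Steroid cell markers summed to 23970 to 42555 CPM in medulla GFP-positive and 8906 to 16535 CPM in medulla GFP-negative libraries. In the cortex they summed to 65280 to 74836 CPM in GFP-positive and 36510 to 41109 CPM in GFP-negative libraries. The part of these cells in the Id3 levels was not tested. Immediate early and stress markers, which dissociation is known to raise, summed to 4648 to 6073 CPM in medulla GFP-positive and 15934 to 19821 CPM in medulla GFP-negative libraries, and to 1998 to 2816 CPM in cortex GFP-positive and 3825 to 5283 CPM in cortex GFP-negative libraries. They were lower in the medulla GFP-positive gate, where Id3 was higher, and like Id3 they were lower in the cortex than in the medulla within each gate. Their part in the Id3 levels was not tested.

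Id2, a broadly expressed inhibitor of differentiation (ENSMUSG00000020644, chromosome 12, 25093801 to 25096092), had 1940, 1361 and 1734 CPM in cortex GFP-positive libraries, against 947, 780 and 1083 CPM in medulla GFP-positive libraries. It had 2063, 1776 and 1627 CPM in cortex GFP-negative libraries, against 928 and 682 CPM in medulla GFP-negative libraries. Every cortex library was higher than every medulla library, and gates overlapped within each tissue. Between GFP-positive cells the difference was 0.84 (SE 0.182, edgeR adjusted p = 0.0126), 1.79-fold, and between GFP-negative cells 1.18 (SE 0.210, edgeR adjusted p = 0.00510), 2.26-fold. The call between GFP-positive cells was lost in the older mice alone (0.258, on 2 cortex libraries and 1 medulla library) and that between GFP-negative cells without medulla GFP-negative library 2 (0.0508). Steroid cell markers summed to 65280 to 74836 CPM in cortex and 23970 to 42555 CPM in medulla GFP-positive libraries, and to 36510 to 41109 CPM in cortex and 8906 to 16535 CPM in medulla GFP-negative libraries. Like Id2 they were higher in the cortex within each gate. Across gates, the sums of cortex GFP-negative libraries lay within the range of medulla GFP-positive libraries, and Id2 was higher in every cortex GFP-negative library. Those groups differ in both gate and tissue and were not compared by a test. The part of steroid cells in the Id2 levels was not tested. The gate changes of -0.12 (SE 0.181, edgeR adjusted p = 0.717) in the cortex and 0.22 (SE 0.203, edgeR adjusted p = 0.502) in the medulla did not pass.

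Id1 (ENSMUSG00000042745, chromosome 2, 152736251 to 152737410), widely used as a readout of BMP signals, had 93.3, 70.7 and 55.8 CPM in cortex GFP-positive libraries, against 44.8, 67.5 and 36.3 CPM in cortex GFP-negative libraries. Medulla values of Id1 were 104, 60.4 and 64.5 CPM in GFP-positive libraries, against 61.3 and 70.8 CPM in GFP-negative libraries. All groups overlapped, and the largest of its 4 pairwise changes was 0.56 in the cortex (SE 0.288, edgeR adjusted p = 0.221).

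Id4 (ENSMUSG00000021379, chromosome 13, 48261427 to 48264036), known from neural development, was low in all groups. It had 0.490, 0 and 0.450 CPM in cortex GFP-positive libraries and 0, 0.0367 and 0 CPM in cortex GFP-negative libraries. In the medulla it had 1.34, 0.765 and 0.679 CPM in GFP-positive libraries and 0.438 and 0.772 CPM in GFP-negative libraries. The 3 cortex GFP-negative libraries held 1 count in all, against 21 in cortex GFP-positive libraries, 24.5 times the CPM, with exact 95% limits from counting of 3.95 and 1015. Set beside that 1 count in cortex GFP-negative cells, the 2 medulla GFP-negative libraries held 31 counts, 47.3 times the CPM, with limits of 7.89 and 1929. Such limits cover counting error only. The cortex gate did not pass (edgeR adjusted p = 0.0831) but did under DESeq2 (0.0488) and without cortex GFP-positive library 2 (0.0264). edgeR called cortex lower than medulla among GFP-negative cells (adjusted p = 0.0420), and the call was lost without any 1 of the 5 libraries (0.0604 to 0.153), with the age term (0.0648) and in the older mice alone (0.222).

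The other genes of the pathway were read from lists chosen with earlier results of these data known. Over all tested genes 14.7% were called in the cortex gate, 7.14% higher and 7.59% lower. In the medulla gate 21.4% were called, 10.2% higher and 11.1% lower. The counts of every list below stand beside these shares, and no test of a list as a whole was run. Of 8 other ligands tested, Bmp7 rose in both gates: 136 ± 12.3 CPM in cortex GFP-positive and 13.8 ± 3.12 CPM in cortex GFP-negative libraries, and 110 ± 36.9 CPM in medulla GFP-positive and 5.23 ± 1.56 CPM in medulla GFP-negative libraries (SD). Its log2 changes were 3.30 (SE 0.294, edgeR adjusted p = 0.000163) and 4.39 (SE 0.372, edgeR adjusted p = 6.77e-05). Both calls held without any 1 library and under all 10 other settings, where the older mice alone had 1 medulla GFP-positive library. Bmp7 stood at 33.7 CPM per kb in cortex GFP-positive cells, above Bmp2 at 4.43, Bmp4 at 1.43 and Bmp6 at 0.511 CPM per kb. Gdf3 was lower in medulla GFP-positive cells, at 0.0172 ± 0.0298 CPM against 10.1 ± 2.01 CPM in medulla GFP-negative libraries, a call lost without any 1 of the 5 libraries (0.0598 to 0.0935). The cortex count of 1 became 2 without cortex GFP-negative library 1 or 2, and the medulla count of 2 became 1 without any library but medulla GFP-positive library 1.

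Of 12 receptor and coreceptor genes tested, 3 were higher and 1 lower in cortex GFP-positive cells, and 4 higher and 1 lower in medulla GFP-positive cells. Acvr1, a type I receptor that binds Bmp7, had 122 ± 57.2 CPM in cortex GFP-positive and 27.9 ± 4.57 CPM in cortex GFP-negative libraries (log2 2.12, SE 0.340, edgeR adjusted p = 0.00274). Medulla libraries held 82.1 ± 22.1 CPM of Acvr1 in the GFP-positive and 29.1 ± 1.17 CPM in the GFP-negative gate (log2 1.497, SE 0.385, edgeR adjusted p = 0.0200). The medulla call ended without GFP-positive library 1 (0.0545), GFP-negative library 1 (0.100) or GFP-negative library 2 (0.0953). Bmpr2, the type II receptor, and Neo1, a coreceptor, were higher in both tissues, at log2 0.96 and 0.71 in the cortex and 1.13 and 1.53 in the medulla. In the older mice alone the Bmpr2 calls were lost (0.0822 in the cortex and 0.0720 in the medulla), as was the Neo1 call in the cortex (0.147). Without cortex GFP-negative library 3 the Neo1 call in the cortex ended (0.0576) and the cortex count fell to 2, and without medulla GFP-positive library 1 or GFP-negative library 2 the medulla count was 3 or 2. Acvrl1, a receptor of endothelium, was lower in GFP-positive cells of both tissues, by -1.92 in the cortex and -2.08 in the medulla. Its call was lost without cortex GFP-positive library 1 or 3 or GFP-negative library 2 or 3 (0.0640 to 0.0780), and without medulla GFP-positive library 1 (0.0519) or GFP-negative library 2 (0.0754). Tgfbr3, a coreceptor, was higher in the medulla by 1.54, lost without medulla GFP-negative library 2 (0.0655) or in the older mice alone (0.0747), as was the Acvrl1 call in the cortex (0.0800).

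**Figure D3:**
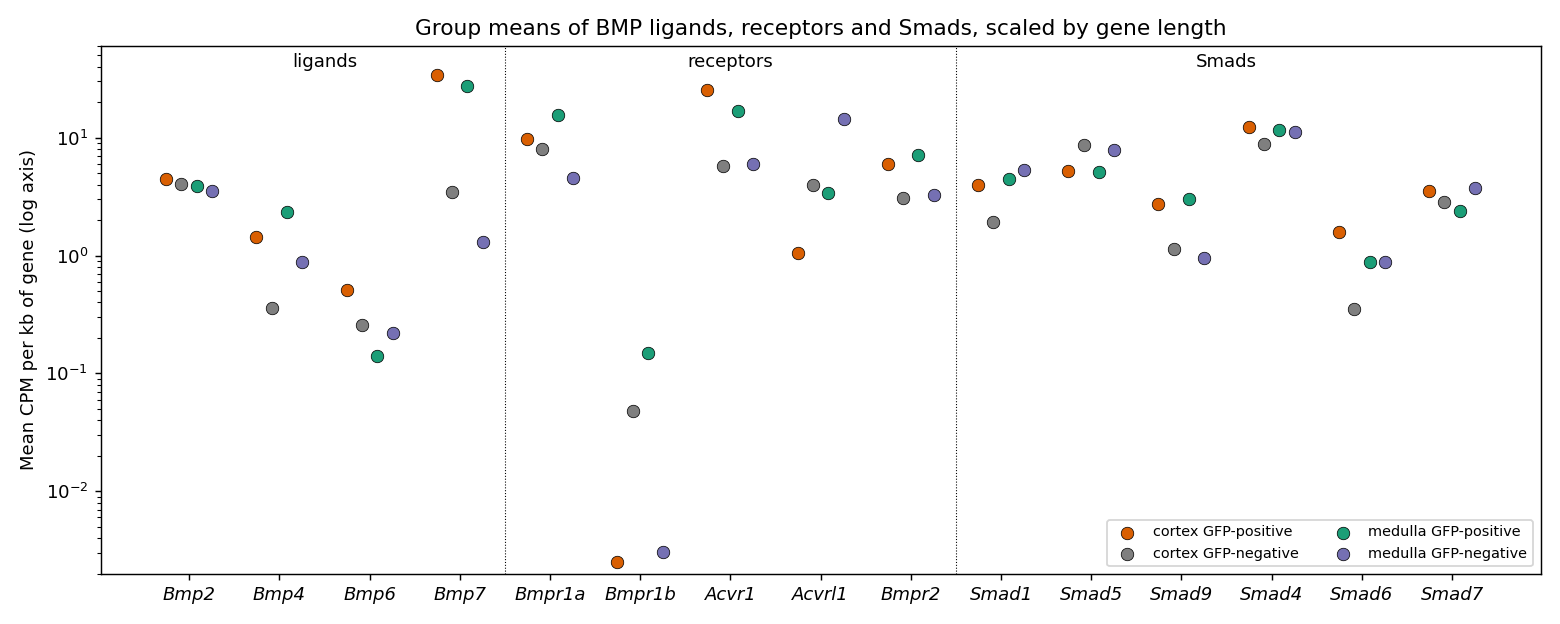
Mean CPM per kb of gene (vertical axis, logarithmic) of BMP ligands, receptors and Smads in the 4 groups, named in the legend. Bmp7 lies at 33.7 and 27.3 CPM per kb in cortex and medulla GFP-positive cells, above 3.43 and 1.30 in the GFP-negative cells; means only, with no error drawn.

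Of 16 Smads and regulators, 2 were higher and 2 lower in cortex GFP-positive cells, and 1 higher and 3 lower in medulla GFP-positive cells. Over all tested genes 14.7% were called in the cortex gate and 21.4% in the medulla gate. Skil, a corepressor of Smads, was lower in both: 24.4 ± 4.57 CPM in cortex GFP-positive and 82.2 ± 6.62 CPM in cortex GFP-negative libraries, and 32.4 ± 6.92 CPM in medulla GFP-positive and 169 ± 14.1 CPM in medulla GFP-negative libraries (edgeR adjusted p = 0.000410 and 7.24e-05). Ppm1a, a phosphatase of Smads, was higher in GFP-positive cells by 0.78 in the cortex and 0.74 in the medulla, calls lost without 5 of the 6 cortex libraries (all but GFP-positive library 1) and 4 of the 5 medulla libraries (all but GFP-positive library 2). The cortex call was also lost in the older mice alone (0.110), and the medulla call with the replicate block (0.0762), the age term (0.0590), only the groups compared (0.115) and the older mice alone (0.0899). Zeb2, a Smad-binding repressor, was higher in the cortex by 0.78, lost without GFP-positive library 2 or 3 or GFP-negative library 1 or 2 (0.0564 to 0.0902). In the medulla Arid3b was lower by -2.10, lost without medulla GFP-negative library 1 (0.0867), and Tob2 by -1.20. Smad5, Smad1, Smad4 and Smad9, which carry the BMP signal, were picked for mention after their values were seen. Smad5 was lower in cortex GFP-positive cells by -0.74 (SE 0.178, edgeR adjusted p = 0.0195), a call lost without cortex GFP-positive library 2 or 3 (0.0667, 0.0633) or GFP-negative library 2 or 3 (0.0729, 0.0593). Smad1, Smad4 and Smad9 were not called in either gate. The older mice alone also lost the calls of Zeb2 (0.0772) and Smad5 (0.195) in the cortex and of Arid3b (0.214) and Tob2 (0.0923) in the medulla. The cortex count fell to 1 without cortex GFP-positive library 2 or 3 and to 2 without GFP-negative library 3.

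Of 10 secreted antagonists, which bind BMP or related ligands, 4 were higher and none lower in the GFP-positive cells of each tissue, and these were Chrd, Fstl1, Fstl3 and Sostdc1 in both. Fstl3 had 76.4 ± 50.1 CPM in medulla GFP-positive and 0.258 ± 0.210 CPM in medulla GFP-negative libraries, and 21.8 ± 9.76 CPM in cortex GFP-positive and 1.98 ± 0.425 CPM in cortex GFP-negative libraries. Chrd, the antagonist of Bmp2 and Bmp4, had 17.0 ± 2.32 CPM in cortex GFP-positive and 2.71 ± 1.498 CPM in cortex GFP-negative libraries (edgeR adjusted p = 0.0140, 0.118 in the older mice alone), and 15.6 ± 5.81 CPM in medulla GFP-positive and 1.61 ± 1.40 CPM in medulla GFP-negative libraries (edgeR adjusted p = 0.00932, 0.0514 without medulla GFP-negative library 1). The gate effect on Fstl3 was smaller in the cortex by -4.76 on the log2 scale (SE 0.914, edgeR adjusted p = 0.0359), a call lost without cortex GFP-positive library 2 or 3, any cortex GFP-negative library or either medulla GFP-negative library, and also with limma voom (0.298), the age term (0.0882), the replicate block (0.0721) or in the older mice alone (0.227). Sostdc1 had no count in either GFP-negative gate. It was at least 81.8-fold higher in the 3 cortex GFP-positive libraries, at 210 counts, and at least 2240-fold higher in the 3 medulla GFP-positive libraries, at 8697 counts, with the GFP-negative libraries of each tissue together set at 3 counts. Its cortex call was lost with limma voom (0.141). Glial markers without Apoe were higher in the same GFP-positive libraries, and their part in these levels was not tested.

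Of 13 other BMP target genes, 3 were higher and 1 lower in GFP-positive cells of each tissue. Runx2 and Hey2 were higher in both, the Runx2 call in the medulla being lost without GFP-negative library 1 (0.0651) or 2 (0.124). Zfp423 was higher in the cortex, at 10.8 ± 0.241 CPM in GFP-positive and 2.42 ± 0.970 CPM in GFP-negative libraries. Hey2, a Notch target, had 67.0 ± 26.3 CPM in medulla GFP-positive and 1.21 ± 0.154 CPM in medulla GFP-negative libraries (edgeR adjusted p = 0.000975). Its cortex call, at 1.90 ± 1.78 CPM in GFP-positive and 0.0865 ± 0.0774 CPM in GFP-negative libraries, was lost with limma voom (0.102) and in the older mice alone (0.0501). Junb, which is also an immediate early gene, was lower in both, by -0.99 in the cortex and -1.75 in the medulla, as were 6 of 14 markers of dissociation stress in the cortex, where 2 were higher, and 11 of 14 in the medulla. That list holds Junb itself. In the cortex the Junb call was lost without cortex GFP-positive library 2 (0.0671) or GFP-negative library 2 (0.0848) or 3 (0.103), with the replicate block (0.0510) and in the older mice alone (0.150), which lost the medulla call too (0.102). In the medulla the count of 4 calls fell to 2 without medulla GFP-negative library 2.

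Of 10 E proteins and basic helix-loop-helix partners, 1 was higher in cortex GFP-positive cells, and 2 were higher and 1 lower in medulla GFP-positive cells. The shares over all tested genes were 14.7% in the cortex gate and 21.4% in the medulla gate. Tcf12, an E protein that Id proteins bind, was higher in the medulla by 0.67 (SE 0.148, edgeR adjusted p = 0.00947), lost without medulla GFP-negative library 1 (0.0628), with only the groups compared (0.0544) and in the older mice alone (0.124). Hand2, a factor of the sympathoadrenal lineage, was higher in both tissues. It had 260 counts in cortex GFP-positive and 2 in cortex GFP-negative libraries, 152 times the CPM with counting limits of 41.6 and 1261, and 119 ± 53.6 CPM in medulla GFP-positive and 25.04 ± 10.7 CPM in medulla GFP-negative libraries (edgeR adjusted p = 0.0118, 0.0964 without medulla GFP-negative library 2 and 0.0776 in the older mice alone). The cortex call of Hand2 was lost with limma voom (0.0608). Tcf21 had no count in medulla GFP-positive libraries and was called lower, lost without any medulla library but GFP-negative library 1, with limma voom (0.0771) and in the older mice alone (0.218). The medulla count of 3 became 1 without medulla GFP-negative library 2. Of the 17 TGF-beta and activin genes tested, 1 was higher and 1 lower in cortex GFP-positive cells, and 4 were higher and 2 lower in medulla GFP-positive cells, a count of 6 that became 3 without medulla GFP-negative library 1. Tgfbr1, the type I receptor of TGF-beta, was lower in the GFP-positive cells of both tissues, at 36.9 ± 6.31 CPM in cortex GFP-positive and 182 ± 51.1 CPM in cortex GFP-negative libraries, and 58.1 ± 5.35 CPM in medulla GFP-positive and 695 ± 163 CPM in medulla GFP-negative libraries. Ltbp3, which binds latent TGF-beta, was higher in both, by 1.30 in the cortex and 1.99 in the medulla. Pmepa1 was higher in medulla GFP-positive cells by 2.53 (edgeR adjusted p = 0.0186). That call was lost with only the groups compared (0.0545), with the age term (0.0570), without medulla GFP-negative library 1 and in the older mice alone. Tgfb2 had 132 ± 71.4 CPM in medulla GFP-positive and 0.201 ± 0.284 CPM in medulla GFP-negative libraries (edgeR adjusted p = 0.00233). Macrophage markers were higher in the same GFP-negative libraries, and their part in the Tgfbr1 levels was not tested.

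**Figure D4:**
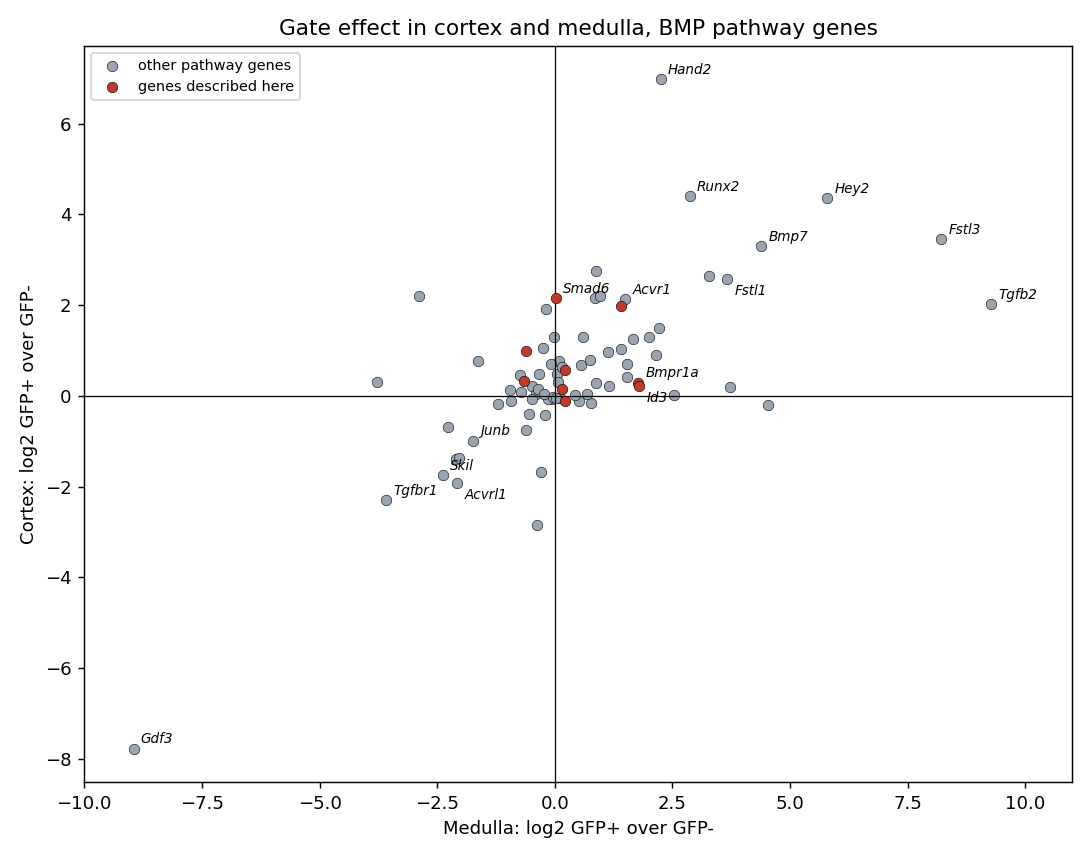
Log2 change between gates in the medulla (horizontal axis) and in the cortex (vertical axis) of 81 genes with mean CPM of at least 1 in some group and above 0 in all 4; red points are 9 of the 10 genes described, and the rest are from the pathway lists. Bmp7 lies at 4.39 in the medulla and 3.30 in the cortex, and Bmpr1a at 1.77 and 0.29; fitted changes of genes with counts near 0 in a group are no bounds.

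The genes most like those called in at least 1 comparison over the 11 libraries were listed by Pearson correlation of log2(CPM + 1) as a description, since the libraries share groups and depth. Id3 ran most closely with Sema3d (r = 0.98, n = 11), Rnf217 and Gm26871, Bmpr1a with Htra1 (r = 0.99), Nsdhl and Ndrg2, and Id2 with Ppcs (r = 0.99), Gm6175 and Ubxn1. Smad6 ran with Gm42826 (r = 0.95), Lrp5 and Lemd2, and Id4 with Cdkl1 (r = 0.98).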

How the data were processed

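Smart-seq type libraries with 17 cycles of PCR were made from sorted cells, and no molecular identifiers are described in the labels' protocols, so intervals and the 3-count floor cover counting error only. Raw counts per gene were deposited by the authors; GSNAP, featureCounts 1.6.0, bcl2fastq 2.19.1, DESeq2 1.18.1 and build mm10 stand in the submitters' processing notes with no stated roles. The authors' deposited comparison tables give log2 fold changes with SE and adjusted p-values. Their 17 columns of normalised values per library were not used. The gene lengths in bases behind the per-kb levels were deposited by the authors too.

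Genes with enough counts by edgeR's filterByExpr (minimum count 10, minimum total 15) were kept, 20893 of 49671. Counts were scaled by TMM and fitted in 1 quasi-likelihood model with 4 group means over all 11 libraries (edgeR 4.0.16 in R 4.3.3, 7 residual degrees of freedom), with Benjamini-Hochberg adjustment over all tested genes and a threshold of 0.05. Total counts were 18500690 to 29204212. limma 3.58.1 (voom) and DESeq2 1.42.0 served as alternatives beside other scalings, filters, age and block terms and the omission of each library. In simulated data for the cortex gate, with 20893 genes and 200 of mean above 50 counts changed, 19% of 2-fold and 67% of 4-fold changes were recovered. The Benjamini-Hochberg threshold depends on the share of genes that change. In the measured cortex gate 14.7% of tested genes were called, and recovery at such a share was not tested. Sample groups came from the titles. Libraries of a group differed by chi-square values of 29.1 to 104 for each degree of freedom, more than counting noise. Each was fitted as a separate library, though some may share a pool of mice. Repeat preparations of 1 sample could differ by more than counting noise too, so these values do not show separate animals.

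The 10 genes, the lists and the tests were chosen with earlier results of these data known. Named genes from each list were the 3 called genes with the largest absolute log2 change at a mean of at least 1 CPM in a compared group. Those of highest level were named too, with exceptions stated. This was done for both gates and the difference of gate effects, and the calls of the lists between tissues are not reported here. Likeness used genes with mean CPM of at least 1 and log2(CPM + 1). The list of genes most like Id4 is not reported here in full.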

Additional observations from a re-analysis of the deposited data

Results flagged for a closer look

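Bmpr1a drew a closer look because its gate effects in the 2 tissues differed by the interaction test: cortex minus medulla was -1.48 on the log2 scale (edgeR adjusted p = 0.0358). GFP-positive libraries were higher than GFP-negative libraries in both tissues, by 0.29 in the cortex and 1.77 in the medulla. The sign was the same in all 11 fits without 1 library, and 8 of them lost the call, with adjusted p up to 0.138. The age term (0.0707) and the older mice alone (0.199, with 1 medulla GFP-positive library) lost it too. Every marker list had calls between the gates of at least 1 tissue. These lists were macrophage, glial, pericyte, steroid cell, zona glomerulosa, chromaffin, fibroblast, endothelial and dissociation stress markers. Over all tested genes 14.7% were called in the cortex gate and 21.4% in the medulla gate. The difference of gate effects was called for 3 of 10 zona glomerulosa and 2 of 14 stress markers. It was also called for 1 marker each of the glial, pericyte and fibroblast lists. The part of these cells and of stress in the Bmpr1a difference was not tested.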

How the results depend on the processing

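The calls of Bmpr1a and Id3 in the medulla gate and of Id3 between GFP-positive cells were kept without any 1 library and in every alternative run with more than 1 library in each group. The older mice alone hold 1 medulla GFP-positive library, assumed to vary like the others. Fits without a medulla GFP-negative library also leave 1 in that group. The authors' deposited table did not call Id3 in the medulla gate (adjusted p = 0.239), by a test that is not like edgeR's test against no change. Over the log2 changes of the 10 genes, the fits without 1 library kept direction and side of the threshold 270 times, lost a call 29 times, gained one 3 times and turned direction 28 times; the other settings did so 447, 9, 6 and 20 times. The cause of these changes was not tested.

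Counts of called genes for the difference of gate effects were 512 with at least 1 CPM in 3 libraries, 1553 with DESeq2, 93 with the age term, 176 with the replicate block and 0 in the older mice alone (edgeR, 2370 of 21684 genes at an unadjusted p under 0.05), beside 337. In the older mice alone 1293 genes were called in the cortex gate, 1843 in the medulla gate, 573 between GFP-positive and 2109 between GFP-negative cells, with fewer libraries in the fit. Of the 10 genes, the cortex gate called 2 with DESeq2 and 0 in the older mice, GFP-positive cells by tissue 1 in the older mice, and the difference of gate effects 3 with DESeq2, 2 with the block and 0 with the age term or in the older mice. With total counts alone the difference of gate effects had 31.1% higher calls, beside 53.1%, and its median over all genes was -0.19, beside -0.02.

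Without 1 library, the calls over all genes ranged over 1959 to 2405 in the cortex gate, 2956 to 3922 in the medulla gate, 2006 to 2874 between GFP-positive cells, 1411 to 3720 between GFP-negative cells and 56 to 489 for the difference of gate effects. Calls among the 10 ranged over 0 to 1 in the cortex gate, 0 to 4 between GFP-negative cells and 0 to 2 for the difference.

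Directions turned for uncalled changes, many of them near 0 or of low genes. Id1, at 66.3 CPM, is not low, and its difference of gate effects was 0.35 with the main settings. Smad6 in the medulla gate was -0.0153 with DESeq2 size factors, -0.0715 with at least 1 CPM, -0.0148 with DESeq2 and -0.0442 with only the groups compared. The Bmp2 difference of gate effects was 0.0221 with DESeq2 size factors, 0.10 with at least 1 CPM, 0.0221 with DESeq2, 0.11 with age and 0.00065 with the block. Bmp6 was -1.20 (voom) and -1.06 (block) in the cortex gate, 1.69 (age) in the medulla gate, -0.41 (age) between GFP-positive cells, and -0.60 (voom) and -1.003 (age) for the difference. With age the difference was -0.0239 for Id1 and -0.67 for Bmp4, and in the older mice -0.11 for Id1. Between GFP-positive cells in the older mice Bmp2 was -0.25 and Bmp4 0.77.

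Without 1 library, Bmp2 ranged over -0.0796 to 0.33 in the cortex gate, -0.40 to 1.01 in the medulla gate, -0.0408 to 0.39 between GFP-positive cells, -0.35 to 1.05 between GFP-negative cells and -0.87 to 0.54 for the difference. Bmp6 ranged over -4.52 to 2.41, -6.68 to 6.08, -3.63 to 7.88, -1.25 to 6.91 and -5.11 to 7.66 in the same order. In the cortex gate Id3 ranged over -0.0503 to 0.53 and Id2 over -0.24 to 0.0121. In the medulla gate Id1 ranged over -0.0797 to 0.36 and Smad6 over -0.66 to 1.37. Between GFP-positive cells Id1 ranged over -0.26 to 0.23 and Bmp4 over -1.17 to 0.32. Smad6 between GFP-negative cells ranged over -1.99 to 0.0380, and the Bmp4 difference over -0.0050 to 1.595.

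Replicate numbers were not taken as pairs: libraries of the same number deviated together with correlations of -0.0140 to 0.114. With the replicate block the Id4 call between GFP-negative cells was lost (adjusted p = 0.0846), and the Id3 difference of gate effects of -1.71 passed (0.0486); the block changed no other call of the 10 genes. Depth limits single libraries to levels above the floor of 0.104 to 0.157 CPM, and medulla GFP-negative cells have 2 libraries.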
